A study of Mus musculus with 6 samples.

Results

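The mitochondrial respiratory chain ends with cytochrome c, its reductase (complex III) and its oxidase (complex IV), and ATP synthase uses the proton gradient that they build. The genes described here are the nuclear genes for cytochrome c, for the subunits and assembly factors of complexes III and IV, and for ATP synthase. Members were the protein coding genes of the count table whose symbol begins with *Uqcr*, *Uqcc*, *Cox* and a digit, or *Atp5*, together with *Surf1*, *Sco1*, *Sco2*, *Bcs1l*, *Ttc19*, *Cyc1* and *Cycs*, and without the *Cox4*, *Cox6a*, *Cox7a* and *Cox8* genes. This gave 52 of 17089 protein coding genes, with 14 genes of complex III, 20 of complex IV, 17 of ATP synthase and 1 for cytochrome c.

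RNA came from 3 hearts of *Immtfl/fl-Myh6-MCM* mice, whose *Immt* gene carries loxP sites, and from 3 hearts of *Immt+/+-Myh6-MCM* mice, called control hearts here. *Immt* encodes Mic60, the core of the MICOS complex that shapes the cristae. By their labels, both groups carried Myh6-MCM, a tamoxifen-dependent Cre recombinase driven by the cardiomyocyte promoter of *Myh6*, and both received tamoxifen, at 6 weeks of age, and were taken 20 weeks later, at 26 weeks. The loxP sites flank exon 4, and since Cre is made in cardiomyocytes, the other cells of the heart keep the gene. Mice of both sexes were used in this line. Each heart gave 1 library, and levels are given as TMM-normalized CPM, counts scaled to a common library size, always in the order of replicates 1, 2 and 3.

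Complex III passes electrons to cytochrome c through the Rieske iron-sulfur protein and cytochrome c1, and complex IV passes them on to oxygen through heme A and copper centers. Each is built from a mitochondrially encoded core to which nuclear subunits are added, and dedicated assembly factors insert the metal and heme groups. ATP synthase consists of a catalytic F1 head, a membrane ring of c subunits that rotates, a peripheral stalk that holds the head in place, and small membrane subunits that help to pair the complexes along the cristae edges. Cardiomyocytes express these genes at high levels because contraction consumes ATP continuously.

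*Immt*, the targeted gene, had 23.0, 28.7 and 39.2 CPM in the *Immtfl/fl-Myh6-MCM* hearts, against 663, 453 and 524 CPM in control hearts (log2FC -4.17, adjusted p = 6.33e-06 from edgeR). Libraries held 49793058 to 53251529 counts in *Immtfl/fl-Myh6-MCM* hearts and 42301627 to 44151674 in control hearts, and mitochondrially encoded genes took 8.20% to 8.85% of the counts in *Immtfl/fl-Myh6-MCM* hearts and 19.5% to 23.3% in control hearts. The summed level of 8 cardiomyocyte markers was 28541, 34093 and 41461 CPM in *Immtfl/fl-Myh6-MCM* hearts, against 69521, 67562 and 72217 CPM in control hearts. Of the 8, 5 were lower with an adjusted p under 0.05 and a log2FC under -1, as 10.6% of all genes tested were. *Tnnt2* and *Actn2* overlapped between the groups and did not pass the test (log2FC -0.18 and -0.15). Single markers ran from 22.5% (*Pln*) to 90.1% (*Actn2*) of the control mean. *Myh6* itself had 15506, 19268 and 22879 CPM in *Immtfl/fl-Myh6-MCM* hearts, against 33931, 36534 and 37352 CPM in control hearts, without overlap. The summed level of 8 macrophage markers, 1 of which was higher past the same thresholds, was 292, 223 and 124 CPM in *Immtfl/fl-Myh6-MCM* hearts and 98.3, 126 and 124 CPM in control hearts, and that of 7 fibroblast markers, with 1 lower and 1 higher at an unadjusted p under 0.05, was 954 to 1441 CPM in *Immtfl/fl-Myh6-MCM* hearts and 1031 to 1392 CPM in control hearts. Of 3 smooth muscle markers, summed at 645, 538 and 504 CPM in *Immtfl/fl-Myh6-MCM* hearts, against 143, 79.1 and 239 CPM in control hearts, *Acta2* was higher past the thresholds (log2FC 2.82), *Myh11* lower (log2FC -1.33) and *Tagln* overlapped. The 4 erythroid markers summed to 1428, 1428 and 433 CPM in *Immtfl/fl-Myh6-MCM* hearts, against 509, 624 and 569 CPM in control hearts, with *Hba-a1* higher. Of the 6 endothelial markers, *Vwf* was higher (log2FC 1.17) and *Tie1* lower by adjusted p alone, and their sum was 1269 to 1477 CPM in *Immtfl/fl-Myh6-MCM* hearts and 1346 to 1476 CPM in control hearts. The 4 adipocyte markers, of which only *Cidea* passed the filter on low counts and was higher (log2FC 1.35), summed to 38.9 to 55.7 CPM in *Immtfl/fl-Myh6-MCM* hearts and 16.2 to 21.7 CPM in control hearts, and 3 lymphocyte markers to 0.509, 1.88 and 21.1 CPM in *Immtfl/fl-Myh6-MCM* hearts and at most 1.20 CPM in control hearts. The part of these other cell types in the results was not tested. In bulk heart RNA, fewer cardiomyocytes and less of a transcript per cardiomyocyte cannot be told apart. *Esr1*, whose ligand-binding part the MCM fusion also contains, had 5.48, 1.30 and 1.43 CPM in *Immtfl/fl-Myh6-MCM* hearts, against 3868, 4101 and 3856 CPM in control hearts. The near absence of these reads from the *Immtfl/fl-Myh6-MCM* hearts goes against a label that gives both groups the same transgene, although the level of *Immt* fits the label. Every difference between the groups given here is therefore also a difference between hearts with and without abundant *Esr1* reads, and the *Immt* genotype and the transgene cannot be told apart. *Xist* was above 1000 counts in replicate 3 of each group and at 4 to 16 counts in the other hearts.

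Of the 51 members that could be tested, 8 fell and 1 rose. A gene is said here to have fallen or risen when its adjusted p was under 0.05 and its log2FC, *Immtfl/fl-Myh6-MCM* over control, was beyond 1 in size. The genes that fell were *Uqcr11*, *Uqcrfs1*, *Uqcc1* and *Bcs1l* of complex III, *Cox6c* and *Cox6b2* of complex IV, and *Atp5e* and *Atp5k* of ATP synthase, and the gene that rose was *Cox19*, a factor of the copper pathway of complex IV. Among all 17146 genes tested, 10.6% fell and 9.91% rose, so that the share of members that fell, 8 of 51, was not far above that of all genes. It was 5 without control replicate 1 and 7 to 9 without any other single library.

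By the adjusted p alone, 32 members were lower and 1 was higher, where 18.5% of all genes tested were lower and 19.9% higher. Every *Immtfl/fl-Myh6-MCM* heart was below every control heart in 37 members, a pattern that 26.0% of all genes showed, and above every control heart in 2 members (*Cox19* and *Cox18*), against 26.9% of all genes. The median log2FC was -0.54 over the members and 0.00 over all genes tested, and the values ran from -2.95 for *Cox6b2* to 1.13 for *Cox19*. The decreases were thus broad and mostly smaller than the fold threshold. Leaving out each library in turn gave 23 (without *Immtfl/fl-Myh6-MCM* replicate 2 or without control replicate 1) to 37 (without *Immtfl/fl-Myh6-MCM* replicate 3) members lower by adjusted p, and a median log2FC of -0.47 to -0.69. The members that lost the adjusted p in this way were *Atp5a1*, *Atp5g1*, *Atp5g2*, *Atp5g3*, *Atp5o*, *Atp5s*, *Cyc1*, *Uqcrq*, *Ttc19* and *Cox6b2*.

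**Figure D1:**
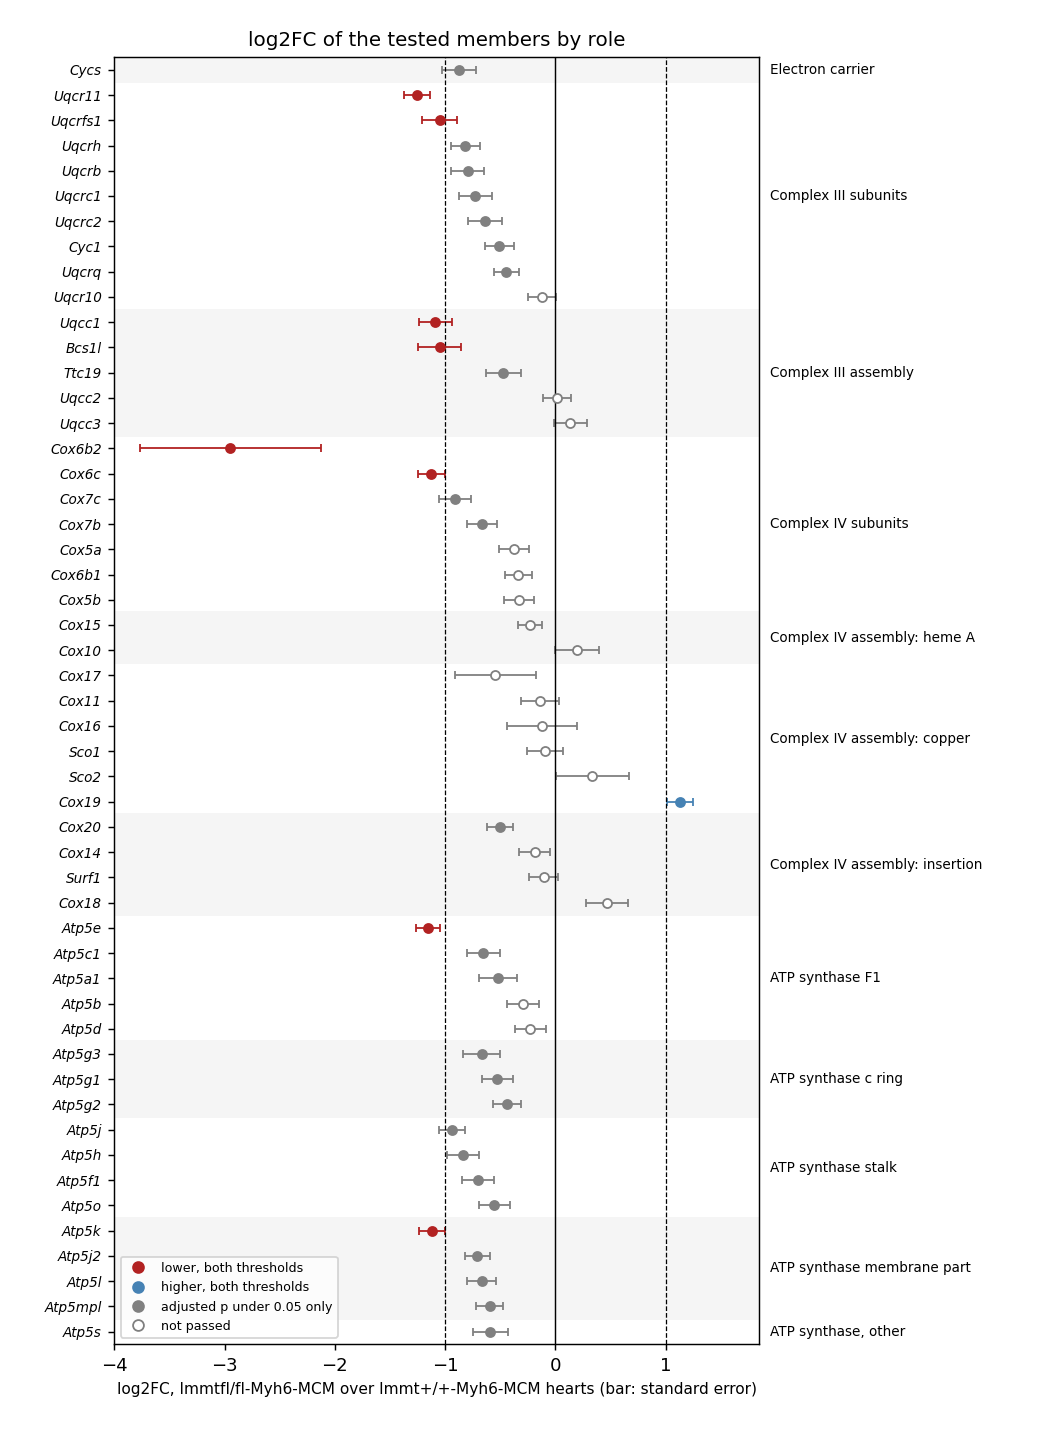
The log2FC (x axis, *Immtfl/fl-Myh6-MCM* over control) of each of the 51 tested members (y axis), ordered by role, with bars for the standard error, dashed lines at -1 and 1, and colors for the outcome of the test. Subunits of complexes III and IV and of ATP synthase all lie left of 0, most of the assembly factors of complex IV lie near 0, and *Cox19* lies at 1.13.

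All 32 tested structural subunits had a negative log2FC, with a median of -0.67. Of these, 6 fell, 26 were lower by adjusted p, and in 30 every *Immtfl/fl-Myh6-MCM* heart was below every control heart. Among all genes tested, the shares were 10.6%, 18.5% and 26.0%. Of the 12 assembly factors of complex IV, none fell by edgeR or DESeq2, *Cox19* rose, and *Cox20* was lower by adjusted p alone and the only one that was lower at an unadjusted p under 0.05. Their median log2FC was -0.11, and 8 of them overlapped between the groups, as did 8087 of all 17146 genes tested. Of all genes tested, 9.91% rose and 19.9% were higher by adjusted p. Summed over each group of genes, the subunits were at 59.5%, 64.7% and 80.0% of the control mean in the *Immtfl/fl-Myh6-MCM* hearts, against 106%, 93.7% and 100.3% in control hearts. The complex IV assembly factors were at 97.7%, 102% and 117% of the control mean in the *Immtfl/fl-Myh6-MCM* hearts, against 102%, 92.5% and 106% in control hearts. That sum includes *Cox19*, at 219% of the control mean. The factors for copper delivery, *Cox19* among them, averaged 140%, those for heme A 102% and those for membrane insertion 86.8%. These 12 are only the factors of the member list, and of 19 further complex IV genes 6 were lower and 1 was higher by adjusted p. The difference between the subunits and these assembly factors was not tested, and these sets of genes also differ in level. All 32 members with a mean of at least 100 CPM had a negative log2FC, 5 of them fell (10.1% of all genes at that level did), 26 were lower by adjusted p (26.7% of all genes at that level), and 30 had no overlap and were lower in every *Immtfl/fl-Myh6-MCM* heart (31.4% of all genes at that level). Their median log2FC was -0.67, against 0.07 over the 1689 genes at that level.

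**Figure D2:**
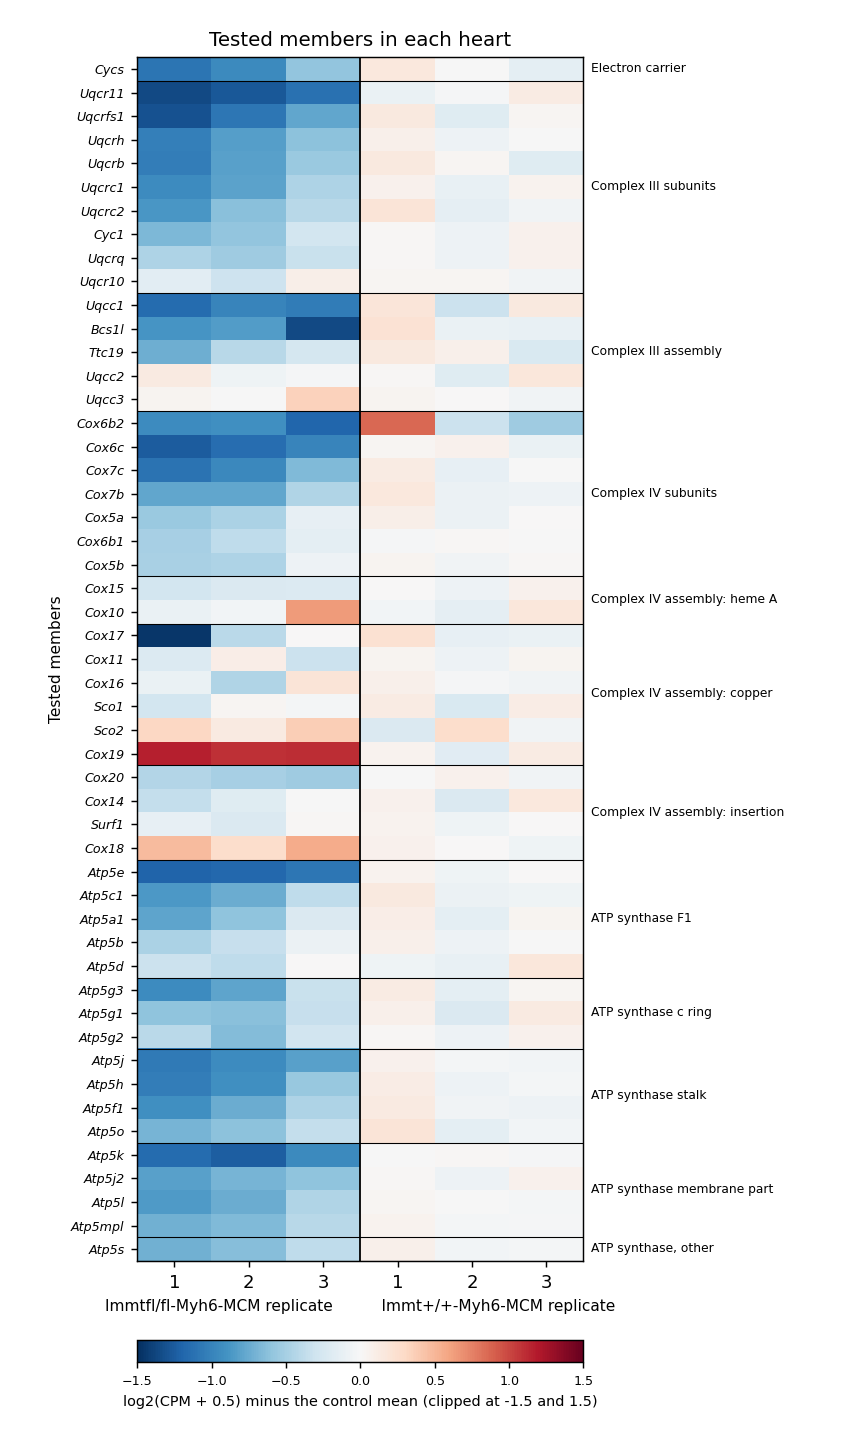
Color gives log2(CPM + 0.5) of each tested member (rows, by role) in each heart (columns, *Immtfl/fl-Myh6-MCM* hearts on the left) minus the mean of the control hearts. Rows of subunits are mostly blue in the *Immtfl/fl-Myh6-MCM* hearts, in 25 of 32 deepest in replicate 1, while most rows of the complex IV assembly factors stay pale and *Cox19* is red in all 3.

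The *Immtfl/fl-Myh6-MCM* hearts were not equal. Replicate 3 had the highest level of the 3 in 43 of the 51 tested members and replicate 1 the lowest in 34. Over all 17146 genes tested, replicate 3 was highest in 6722 and replicate 1 lowest in 5341. The median deviation of the 32 subunits from the control mean was -0.85, -0.74 and -0.43 on the log2(CPM + 0.5) scale in *Immtfl/fl-Myh6-MCM* replicates 1, 2 and 3, against 0.07, -0.08 and 0.00 in control hearts. Over all genes tested, the same deviation was 0.01, -0.01 and -0.01 in the *Immtfl/fl-Myh6-MCM* hearts, against 0.00, -0.01 and 0.01 in control hearts. Replicate 3 was also the *Immtfl/fl-Myh6-MCM* heart with the highest summed cardiomyocyte markers and the one that expressed *Xist*. With a term for the *Xist*-expressing hearts in the fit, a choice made after the data were seen, 8 members fell and 1 rose. The part of the cardiomyocyte share in these values was not tested.

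**Figure D3:**
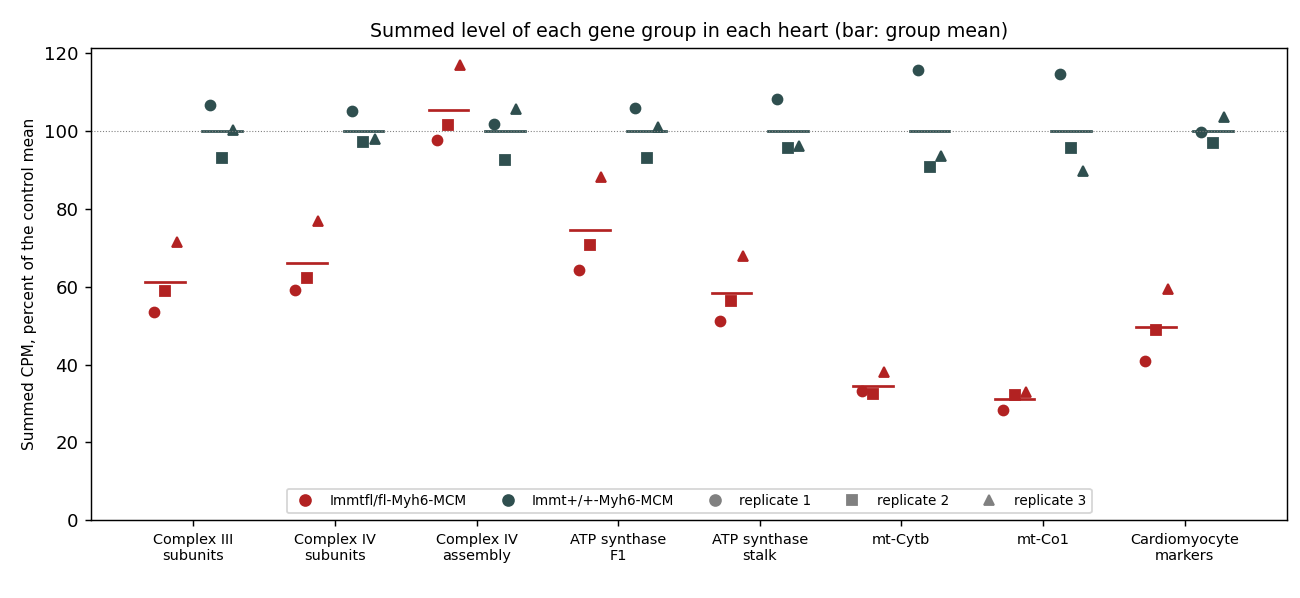
Points give the summed CPM of each gene group (x axis) in each heart, as percent of the mean of the control hearts (y axis), and bars give group means. The subunits of complexes III and IV average 61.3% and 66.1% in *Immtfl/fl-Myh6-MCM* hearts, and the complex IV assembly factors, with *Cox19* (219%) included, 105%. *mt-Cytb* and *mt-Co1* average 34.6% and 31.1%. The cardiomyocyte markers average 49.7%, with single markers from 22.5% (*Pln*) to 90.1% (*Actn2*).

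Cytochrome c, which carries electrons between complexes III and IV, is encoded by *Cycs* on chromosome 6. *Cycs* had 252, 277 and 357 CPM in the *Immtfl/fl-Myh6-MCM* hearts, against 599.7, 538 and 485 CPM in control hearts. The groups did not overlap, and the log2FC of -0.87 (standard error 0.156, adjusted p = 0.0022) passed the adjusted p alone and crossed the fold threshold only without *Immtfl/fl-Myh6-MCM* replicate 3 (log2FC -1.03). NRF1, nuclear respiratory factor 1, is a transcription factor known for binding the promoters of respiratory chain genes, and *Cycs* is its classic target. The promoter of *Cycs* is printed to show a match to the NRF1 letters GCGCANGCG in capitals, on the other strand, with its first printed letter at position -61. It spans 250 bases before to 50 bases after the start of the gene, as RefSeq gives it for GRCm38.p6, at chr6:50566520-50566819 on the minus strand, and positions count from the start.
Cycs: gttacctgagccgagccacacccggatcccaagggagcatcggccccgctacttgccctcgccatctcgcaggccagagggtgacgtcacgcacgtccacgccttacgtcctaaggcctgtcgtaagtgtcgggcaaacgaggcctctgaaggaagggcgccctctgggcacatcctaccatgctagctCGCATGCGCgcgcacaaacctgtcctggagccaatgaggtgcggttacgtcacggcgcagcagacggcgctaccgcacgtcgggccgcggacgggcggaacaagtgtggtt

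Complex III had 4 genes that fell out of 14, and 11 that were lower by adjusted p, where 10.6% and 18.5% of all genes tested did so. Among its 9 subunits, *Uqcr11*, a small subunit without a cofactor, had 76.4, 80.6 and 89.7 CPM in *Immtfl/fl-Myh6-MCM* hearts, against 183, 193 and 213 CPM in control hearts. Its log2FC was -1.25 (standard error 0.121, adjusted p = 7.29e-05), the lowest of the complex, and the *Immtfl/fl-Myh6-MCM* hearts stood close together, at 41.9% of the control mean. *Uqcrfs1*, which encodes the Rieske protein, had 270.3, 314 and 389 CPM in *Immtfl/fl-Myh6-MCM* hearts, against 739, 591 and 684 CPM in control hearts (log2FC -1.05, standard error 0.159, adjusted p = 0.000909). No heart overlapped the other group here either, but *Uqcrfs1* was near the fold threshold, and its log2FC was -0.92 without *Immtfl/fl-Myh6-MCM* replicate 1 and -0.98 without control replicate 1.

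The other subunits of complex III were lower by smaller steps. *Uqcrh*, the hinge protein that contacts cytochrome c1, had a log2FC of -0.82, *Uqcrb* -0.80, the core proteins *Uqcrc1* and *Uqcrc2* -0.73 and -0.63, *Cyc1*, which encodes cytochrome c1, -0.51, and the small subunit *Uqcrq* -0.44, all of them with an adjusted p under 0.05 and no overlap between the groups. *Uqcr10*, another small subunit, was the exception, with 140.2, 126 and 167 CPM in *Immtfl/fl-Myh6-MCM* hearts and 159.8, 160.2 and 151 CPM in control hearts. Its highest value was that of *Immtfl/fl-Myh6-MCM* replicate 3, the groups overlapped, and the log2FC of -0.12 did not pass the test (adjusted p = 0.495). The nuclear subunits of 1 complex thus ranged from -1.25 to -0.12 on the log2 scale.

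The promoter of *Uqcr11*, the complex III subunit with the lowest log2FC, is printed because it holds both an NRF1 match and a match to CCGGAAGT, the letters bound by the ETS family to which GABP belongs, a further regulator known for respiratory chain genes. The ETS match is at position -66 and the NRF1 match, on the other strand, at position -5 (RefSeq, GRCm38.p6, chr10:80406772-80407071, minus strand).
Uqcr11: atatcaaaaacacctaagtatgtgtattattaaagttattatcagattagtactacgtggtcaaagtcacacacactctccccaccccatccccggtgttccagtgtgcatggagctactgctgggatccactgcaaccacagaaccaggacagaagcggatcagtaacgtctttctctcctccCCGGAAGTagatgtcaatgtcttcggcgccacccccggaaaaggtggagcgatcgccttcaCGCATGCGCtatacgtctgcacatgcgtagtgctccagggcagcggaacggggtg

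Among the 5 assembly factors of complex III, 2 fell, where 10.6% of all genes tested did so. *Uqcc1*, which with *Uqcc2* receives newly made cytochrome b, had 66.7, 75.0 and 71.7 CPM in *Immtfl/fl-Myh6-MCM* hearts, against 169, 119 and 165 CPM in control hearts (log2FC -1.09, standard error 0.150, adjusted p = 0.000543). *Bcs1l*, the ATPase that moves the Rieske protein into the complex, had 11.5, 12.0 and 8.18 CPM in *Immtfl/fl-Myh6-MCM* hearts, against 25.3, 20.2 and 20.1 CPM in control hearts (log2FC -1.05, standard error 0.194, adjusted p = 0.00258). The groups did not overlap in either gene, and for *Bcs1l* the lowest heart was *Immtfl/fl-Myh6-MCM* replicate 3, unlike most members. *Bcs1l* missed the fold threshold without *Immtfl/fl-Myh6-MCM* replicate 3 (log2FC -0.89) or without control replicate 1 (-0.94), so that the transcripts of the Rieske protein and of the ATPase that inserts it both lay near the threshold.

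*Ttc19*, which clears fragments of the Rieske protein after its insertion, was lower by adjusted p alone (log2FC -0.47, adjusted p = 0.0406), and lost it with DESeq2 (adjusted p = 0.0525), with a term for the *Xist*-expressing hearts (adjusted p = 0.0569), with a replicate block (adjusted p = 0.0837) and without any 1 of 4 libraries. *Uqcc2*, the partner of *Uqcc1*, had 51.2, 44.4 and 46.3 CPM in *Immtfl/fl-Myh6-MCM* hearts and 47.3, 41.0 and 52.4 CPM in control hearts, and *Uqcc3*, which acts after them on cytochrome b, had 18.7, 18.1 and 23.3 CPM in *Immtfl/fl-Myh6-MCM* hearts and 18.8, 18.3 and 17.6 CPM in control hearts. Both overlapped between the groups, with a log2FC of 0.01 for *Uqcc2* and 0.14 for *Uqcc3*, and neither passed the test (adjusted p = 0.947 and 0.516). The partners *Uqcc1* and *Uqcc2* therefore stood apart in level, *Uqcc1* at 47.0% and *Uqcc2* at 101% of the control mean, a difference that was not itself tested. The promoter of *Bcs1l* holds an ETS match at position -47, in capitals, and no NRF1 match (RefSeq, GRCm38.p6, chr1:74588039-74588338, plus strand).
Bcs1l: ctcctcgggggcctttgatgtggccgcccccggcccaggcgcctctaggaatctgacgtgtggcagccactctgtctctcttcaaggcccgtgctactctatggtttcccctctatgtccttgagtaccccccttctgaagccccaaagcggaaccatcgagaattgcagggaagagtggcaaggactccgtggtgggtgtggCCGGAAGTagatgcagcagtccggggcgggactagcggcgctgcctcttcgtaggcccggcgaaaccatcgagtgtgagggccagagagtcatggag

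Complex IV had 20 members, 19 of them tested, with 2 that fell and 1 that rose, where 10.6% of all genes tested fell and 9.91% rose. The 2 of 19 that fell were about the share of all genes. *Cox6c*, a nuclear subunit that surrounds the catalytic core, had 199.8, 214 and 239 CPM in *Immtfl/fl-Myh6-MCM* hearts, against 484, 497 and 444 CPM in control hearts (log2FC -1.13, standard error 0.120, adjusted p = 0.000131). *Cox7c* had 166, 183 and 226 CPM in *Immtfl/fl-Myh6-MCM* hearts, against 392, 331 and 357 CPM in control hearts (log2FC -0.91, standard error 0.144, adjusted p = 0.00113), and *Cox7b* had a log2FC of -0.67 (adjusted p = 0.00466). None of these 3 small subunits overlapped between the groups. *Cox6c* shares part of its locus with *Vps13b* on the opposite strand, the only one of the 9 genes past both thresholds to overlap another gene.

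*Cox5a*, *Cox5b* and *Cox6b1*, subunits on the matrix side (the *Cox5* pair) and on the side of cytochrome c (*Cox6b1*), had log2FC values closer to 0. *Cox5b* had 241, 244 and 319.6 CPM in *Immtfl/fl-Myh6-MCM* hearts and 346, 324 and 343 CPM in control hearts, with a log2FC of -0.33 (adjusted p = 0.0835). *Cox5a* had 360.2, 380.1 and 483 CPM in *Immtfl/fl-Myh6-MCM* hearts and 561, 495 and 529 CPM in control hearts, with a log2FC of -0.37 (adjusted p = 0.0611). In all of these the groups did not overlap, but *Immtfl/fl-Myh6-MCM* replicate 3 came close to the control hearts and none passed the adjusted p. All of them passed it without that heart (adjusted p = 0.00659 for *Cox5a*, 0.00653 for *Cox5b* and 0.0110 for *Cox6b1*) and with upper-quartile factors (adjusted p = 0.0219, 0.0289 and 0.0196), *Cox6b1* also with the stricter filter (adjusted p = 0.0481) and *Cox5a* with the *Xist* term (adjusted p = 0.0469).

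*Cox6b2* and *Cox7b2* are isoforms best known from testis, and both were close to absent. *Cox6b2* had 8, 8 and 2 counts in *Immtfl/fl-Myh6-MCM* hearts, against 64, 19 and 14 counts in control hearts (log2FC -2.95, standard error 0.822, adjusted p = 0.0191). Pooled and scaled by library size times TMM factor, control hearts had 7.67 times the *Cox6b2* counts of *Immtfl/fl-Myh6-MCM* hearts (95% exact interval 4.61 to 13.5, counting error only). But control replicate 1 alone held 64 of 97 control counts, and without it the log2FC was -1.91 and the adjusted p 0.128. Its ubiquitous paralog *Cox6b1* had 276, 300.2 and 355 CPM in *Immtfl/fl-Myh6-MCM* hearts and 388, 397 and 390.0 CPM in control hearts (log2FC -0.33, adjusted p = 0.0611). *Cox7b2* had 0, 10 and 0 counts in *Immtfl/fl-Myh6-MCM* hearts and 0, 5 and 0 counts in control hearts and was not tested.

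The copper centers of complex IV are filled by a relay in the intermembrane space, in which *Cox17* hands copper to *Sco1* and *Sco2* for one center and to *Cox11* for the other. *Cox19*, a small protein of that space which works with *Cox11* in yeast, was the member that rose. It had 65.7, 62.6 and 63.4 CPM in *Immtfl/fl-Myh6-MCM* hearts, against 30.1, 25.8 and 31.6 CPM in control hearts, that is 63.9 ± 1.61 CPM against 29.1 ± 3.03 CPM (mean ± SD, n = 3 each). Its log2FC was 1.13 (standard error 0.119, adjusted p = 0.000121), the *Immtfl/fl-Myh6-MCM* hearts differed little among themselves, and over the 14 alternatives in processing and left-out libraries the log2FC ran from 1.03 to 1.19, past both thresholds in each. *Cox19* lies on chromosome 5 of GRCm38 from 139336189 to 139351418 on the minus strand and overlaps no other annotated gene.

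The rest of the copper relay did not pass the test. *Cox17* had 2.70, 6.13 and 8.32 CPM in *Immtfl/fl-Myh6-MCM* hearts and 9.77, 7.54 and 7.68 CPM in control hearts (log2FC -0.54, standard error 0.366, adjusted p = 0.277), with replicate 1 far below the other *Immtfl/fl-Myh6-MCM* hearts. *Sco1* had 16.8, 21.0 and 20.0 CPM in *Immtfl/fl-Myh6-MCM* hearts and 22.3, 17.4 and 22.1 CPM in control hearts (log2FC -0.10, adjusted p = 0.676). Its paralog *Sco2* had 1.98, 1.70 and 2.10 CPM in *Immtfl/fl-Myh6-MCM* hearts and 1.23, 1.91 and 1.44 CPM in control hearts (log2FC 0.34, adjusted p = 0.455). *Cox17*, *Sco1* and *Sco2* all overlapped between the groups, as did *Cox11* (log2FC -0.14) and *Cox16* (log2FC -0.12). Counts of *Sco2* and *Cox16*, which lie on top of genes of the same strand, are uncertain. In the window printed for *Cox19*, none of the 4 motifs searched was found (RefSeq, GRCm38.p6, chr5:139345117-139345416, minus strand), and it is printed as the RefSeq promoter of the gene that rose. This window lies inside the counted gene, which on the minus strand begins at 139351418, and the stretch before that position was not searched.
Cox19: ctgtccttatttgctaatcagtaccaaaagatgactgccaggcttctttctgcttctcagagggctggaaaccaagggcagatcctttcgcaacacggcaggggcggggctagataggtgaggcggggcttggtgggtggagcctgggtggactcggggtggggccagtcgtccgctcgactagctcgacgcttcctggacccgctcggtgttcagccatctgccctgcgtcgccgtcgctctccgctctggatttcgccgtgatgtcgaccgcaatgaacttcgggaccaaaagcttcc

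Heme A, the other prosthetic group of complex IV, is made by *Cox10* and then *Cox15*. *Cox10* had 55.3, 57.7 and 92.2 CPM in *Immtfl/fl-Myh6-MCM* hearts and 57.7, 54.1 and 66.7 CPM in control hearts (log2FC 0.20, adjusted p = 0.465), and the highest heart was *Immtfl/fl-Myh6-MCM* replicate 3. *Cox15* had 38.8, 40.3 and 40.7 CPM in *Immtfl/fl-Myh6-MCM* hearts and 47.1, 44.5 and 49.1 CPM in control hearts (log2FC -0.23, adjusted p = 0.121), a small shift without overlap that did not pass the test.

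Of the factors that insert and protect the core subunits, *Cox20*, a chaperone of the copper-carrying subunit COX2, had 25.0, 24.0 and 23.4 CPM in *Immtfl/fl-Myh6-MCM* hearts, against 33.9, 35.7 and 32.8 CPM in control hearts (log2FC -0.50, standard error 0.119, adjusted p = 0.0092). *Cox18*, which moves the tail of COX2 across the inner membrane, had 9.23, 7.90 and 9.76 CPM in *Immtfl/fl-Myh6-MCM* hearts and 6.77, 6.52 and 6.16 CPM in control hearts (log2FC 0.47, adjusted p = 0.0795). These factors for the same subunit lay on opposite sides of 0 with no overlap between the groups, *Cox20* past the adjusted p and *Cox18* not. *Cox20* shares part of its locus with *Hnrnpu* on the opposite strand, so that counts made without strand would mix them. *Surf1* (log2FC -0.11) and *Cox14* (log2FC -0.19), which act early on the core subunit COX1, overlapped between the groups.

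**Figure D4:**
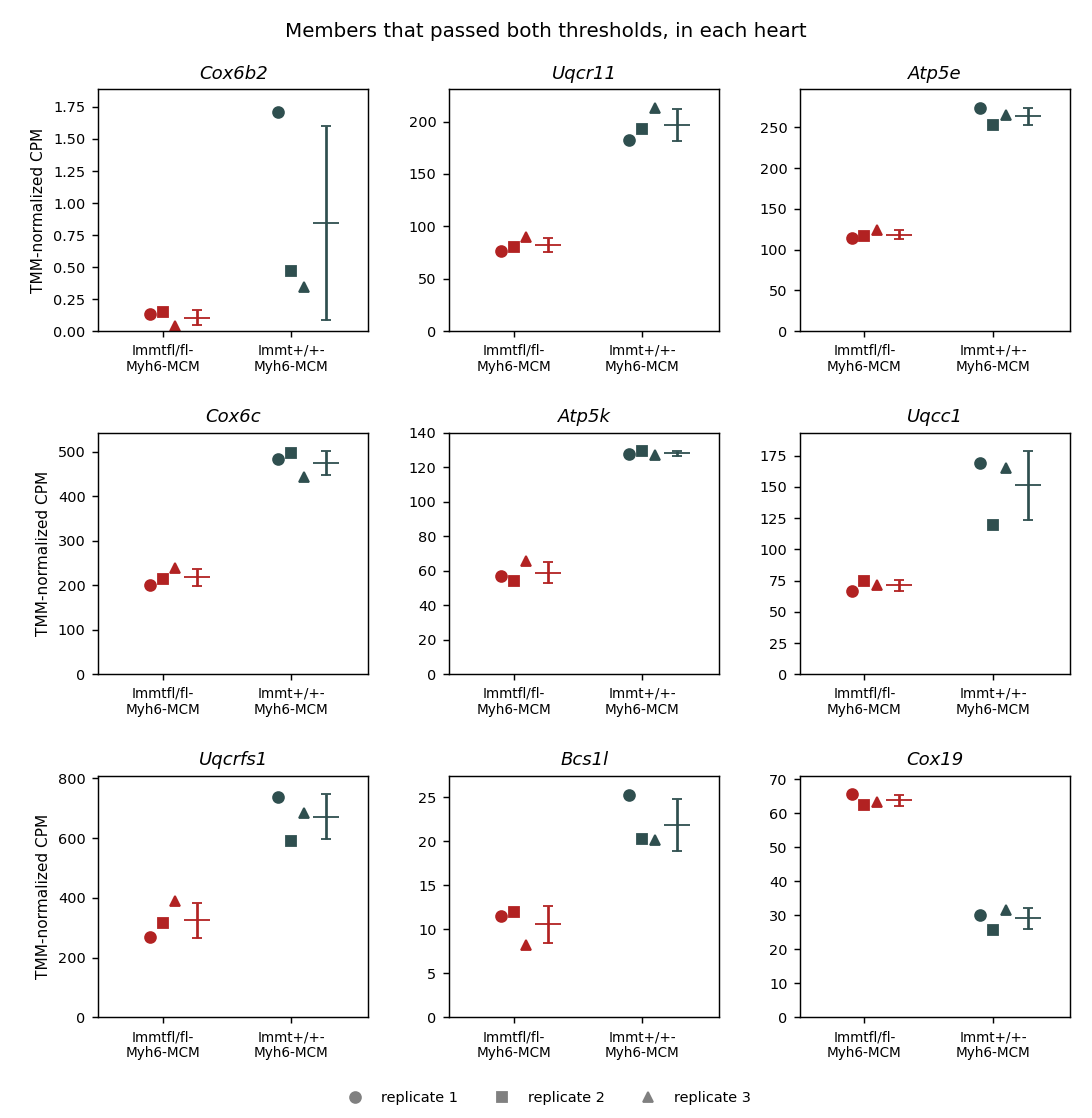
Levels in TMM-normalized CPM (y axes, each from 0) of the 9 members past both thresholds, with 1 symbol per heart, *Immtfl/fl-Myh6-MCM* hearts on the left and control hearts on the right, and the mean with SD beside them. In *Cox19* the *Immtfl/fl-Myh6-MCM* hearts lie above the control hearts, and in *Cox6b2* control replicate 1 lies far above the other control hearts.

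All 17 ATP synthase genes had a negative log2FC, with a median of -0.65. Of them 2 fell, 15 were lower by adjusted p, and 16 had every *Immtfl/fl-Myh6-MCM* heart below every control heart. The shares of all genes tested were 10.6%, 18.5% and 26.0%, so that the 2 that fell were about the share of all genes. *Immtfl/fl-Myh6-MCM* replicate 3 was the highest of its group in all 17, and in 6722 of all 17146 genes tested. In the F1 head, *Atp5e*, the small epsilon subunit of the central shaft, had 114, 116 and 124 CPM in *Immtfl/fl-Myh6-MCM* hearts, against 274, 252 and 265 CPM in control hearts (log2FC -1.16, standard error 0.108, adjusted p = 6.23e-05). The other F1 genes had log2FC values closer to 0, and *Atp5d* overlapped between the groups. *Atp5b*, the catalytic beta subunit, had 3379, 3681 and 4405 CPM in *Immtfl/fl-Myh6-MCM* hearts and 4935, 4442 and 4668 CPM in control hearts (log2FC -0.29, adjusted p = 0.137), and *Atp5d*, the delta subunit beside epsilon on the shaft, had 281, 271 and 353 CPM in *Immtfl/fl-Myh6-MCM* hearts and 338, 327 and 395 CPM in control hearts (log2FC -0.23, adjusted p = 0.24).

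*Atp5a1*, the alpha subunit, had a log2FC of -0.52 (adjusted p = 0.0362), and *Atp5c1*, the gamma subunit of the shaft, -0.65 (adjusted p = 0.00846). The 5 genes of the F1 head therefore ran from -1.16 to -0.23, with the epsilon subunit at 44.8% and the delta subunit at 85.5% of the control mean. Without *Immtfl/fl-Myh6-MCM* replicate 3, *Atp5b* and *Atp5d* passed the adjusted p too (0.0319 and 0.0444).

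The c ring is encoded by 3 genes that make the same mature protein. *Atp5g3* had 457, 508 and 697 CPM in *Immtfl/fl-Myh6-MCM* hearts, against 958, 791 and 894 CPM in control hearts (log2FC -0.67, adjusted p = 0.0129). *Atp5g1* had 345, 341 and 414 CPM in *Immtfl/fl-Myh6-MCM* hearts, against 552, 453 and 579 CPM in control hearts (log2FC -0.53, adjusted p = 0.0156). *Atp5g2* had 96.4, 81.4 and 105 CPM in *Immtfl/fl-Myh6-MCM* hearts, against 129.7, 121 and 133 CPM in control hearts (log2FC -0.44, adjusted p = 0.0219). All 3 were lower by adjusted p, without overlap and short of the fold threshold, and their log2FC values lay within 2 standard errors of each other.

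The peripheral stalk had the lowest median log2FC of the parts of ATP synthase, -0.77, with all 4 genes lower by adjusted p. *Atp5j*, coupling factor F6, had 235, 255 and 279 CPM in *Immtfl/fl-Myh6-MCM* hearts, against 515, 481 and 476 CPM in control hearts (log2FC -0.94, standard error 0.117, adjusted p = 0.000314). *Atp5o*, the subunit OSCP that ties the stalk to the head, had 115, 122 and 145 CPM in *Immtfl/fl-Myh6-MCM* hearts, against 212, 168 and 180.4 CPM in control hearts (log2FC -0.55, standard error 0.139, adjusted p = 0.0118). The groups overlapped in neither, nor in *Atp5h* (log2FC -0.83), subunit d, and *Atp5f1* (log2FC -0.70), subunit b. *Atp5j* overlaps *Gabpa*, *Atp5f1* overlaps *Wdr77* and *Atp5o* overlaps *Gm15976*, each on the opposite strand, so that counts made without strand would mix them, and the sources used here do not give the strand setting.

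Of the 4 small membrane subunits, *Atp5k*, subunit e, which helps to pair ATP synthases, fell, with 57.2, 54.0 and 65.6 CPM in *Immtfl/fl-Myh6-MCM* hearts, against 128, 129.7 and 127 CPM in control hearts (log2FC -1.12, standard error 0.117, adjusted p = 0.000117). *Atp5l*, subunit g and its partner in that pairing, had 178, 191 and 235 CPM in *Immtfl/fl-Myh6-MCM* hearts, against 328, 319 and 315 CPM in control hearts (log2FC -0.67, adjusted p = 0.00346). The control hearts were tight in both genes, within 127 to 130 CPM for *Atp5k*. *Atp5j2*, subunit f, had a log2FC of -0.71 with an adjusted p under 0.05. *Atp5mpl*, a small proteolipid, had 77.1, 80.5 and 95.7 CPM in *Immtfl/fl-Myh6-MCM* hearts, against 132, 125 and 126 CPM in control hearts (log2FC -0.59, adjusted p = 0.0043). The groups did not overlap in any of the 4. *Atp5s*, grouped apart from these, had 12.4, 13.1 and 15.8 CPM in *Immtfl/fl-Myh6-MCM* hearts, against 21.8, 20.1 and 20.2 CPM in control hearts (log2FC -0.59, adjusted p = 0.0148). The promoter of *Atp5k* carries a palindromic stretch in which NRF1 matches on both strands overlap, at positions -50 and -49 (RefSeq, GRCm38.p6, chr5:108434350-108434649, minus strand).
Atp5k: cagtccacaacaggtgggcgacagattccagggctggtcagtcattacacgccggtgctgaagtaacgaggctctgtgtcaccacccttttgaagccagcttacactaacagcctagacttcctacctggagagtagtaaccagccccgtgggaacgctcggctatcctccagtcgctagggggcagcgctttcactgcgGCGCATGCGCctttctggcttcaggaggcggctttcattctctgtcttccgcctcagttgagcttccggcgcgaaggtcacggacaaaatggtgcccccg

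Over the 43 members with a promoter in the RefSeq table, 12 (27.9%) held an NRF1 match and 8 (18.6%) an ETS match on either strand. Of all promoters in the table, 6.25% held the NRF1 letters and 3.89% the ETS letters, and among tested protein coding genes the shares were 14.3% and 8.49%. TCAAGGTCA, the letters of estrogen-related receptors, was in 1 member (2.33%, *Atp5g3*), against 0.423% of all promoters and 0.312% of tested protein coding genes. AAGATGGCG, the letters of YY1, was in 3 members (6.98%), against 1.40% of all promoters and 3.26% of tested protein coding genes. The shares of members and of tested genes count a gene once, whichever of its promoters holds the letters. At least 1 of the 4 was in 20 members. NRF1 letters were in *Uqcr11* and *Atp5k*, which fell, and in *Uqcc2*, whose groups overlapped, and none were in the window of *Atp5e*, which fell. A match shows only that these letters are in the window.

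Outside the member list, 44 further genes of these complexes, of their assembly and of complex II were tested, of which 8 fell and none rose by edgeR, nor did any rise by DESeq2. Of the 8, 5 are mitochondrially encoded, and 10.6% of all genes tested fell and 9.91% rose. By adjusted p alone 24 were lower and 3 higher, against 18.5% and 19.9% of all genes tested. The same number, 3, was higher at an unadjusted p under 0.05. The mitochondrially encoded subunits that the members are assembled with had lower log2FC values than every tested subunit among the members other than *Cox6b2*. *mt-Cytb*, cytochrome b, had 12017, 11707 and 13711 CPM in *Immtfl/fl-Myh6-MCM* hearts, against 41760.5, 32736 and 33813 CPM in control hearts (log2FC -1.53, adjusted p = 0.000121). *mt-Co1*, the core subunit COX1, had 26223, 29948 and 30576 CPM in *Immtfl/fl-Myh6-MCM* hearts, against 106591, 88929.5 and 83343 CPM in control hearts (log2FC -1.68, adjusted p = 8.75e-05). Neither overlapped between the groups. *mt-Co2*, *mt-Co3* and *mt-Atp6* also fell (log2FC -2.17, -2.47 and -2.45), and *mt-Atp8* did not pass the test (adjusted p = 0.0713), but a near-identical copy of that stretch lies on nuclear chromosome 1 and makes these 4 values uncertain.

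Among the nuclear assembly genes of that list, *Cmc2* (log2FC -1.36, adjusted p = 0.000313) and *Coa7* (log2FC -1.09, adjusted p = 0.000629), both of complex IV assembly, fell. *Taco1*, which activates translation of *mt-Co1*, was lower by adjusted p alone (log2FC -0.83, adjusted p = 0.00297), as was *Lyrm7*, which stabilizes the Rieske protein before insertion (log2FC -0.79, adjusted p = 0.0107). So were *Atpaf2* (log2FC -0.68) and *Tmem70* (log2FC -0.64), which assemble the F1 head and the c ring. *Atpif1*, the inhibitor of ATP hydrolysis by the synthase, was on the other side, with 95.7, 109 and 141 CPM in *Immtfl/fl-Myh6-MCM* hearts, against 83.0, 81.6 and 70.4 CPM in control hearts (log2FC 0.56, adjusted p = 0.0202). *Fdxr*, which passes electrons to ferredoxin for heme A synthesis, and *Smim4*, a factor of complex III, were also higher by adjusted p alone (log2FC 0.80 and 0.72). Of the 19 further complex IV genes, 6 were lower and 1 was higher by adjusted p, against 18.5% and 19.9% of all genes tested.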

How the data were processed

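Poly-A RNA of 6 mouse hearts was sequenced, 3 per genotype. The sample labels describe oligo-dT capture with a molecular identifier and tagmentation, and name the builds mm10 and GRCm38 and, as tools, edgeR 4.0.16, Subread 2.1.1, featureCounts, STAR 2.7.11 and SAMtools 1.22.1. The order of these steps, the strand setting and the treatment of identifiers were not given in the sources used here.

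The authors deposited counts per gene, which were the only values used for results. The deposited FPKM, the deposited signal (counts divided by a size factor, with group means), and the authors' log2 fold changes and p-values from their own comparison were left out.

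Of 27021 genes, 17146 passed filterByExpr of edgeR 4.0.16 (minimum count 10, minimum total count 15). Counts were scaled by TMM and the groups compared by the quasi-likelihood F test in R 4.3.3 with robust dispersion, with Benjamini-Hochberg adjustment over all genes tested. Thresholds were an adjusted p of 0.05 and a log2FC of 1 in size, and the size of the log2FC over the root of F was taken as its standard error. The code of the test was also run on simulated counts with the same dispersion for every gene. That is a simpler setting than these hearts, and no result here rests on it. The labels number the hearts but do not say that a number marks a shared litter or day, so the main fit had no pairing and the p-values treat each heart as independent. Exact intervals are at 95% and cover counting error only.

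Members, gene lists and the rule for naming genes were chosen with earlier results of these data known. Every member may be named. Among the members, values per heart were given for genes past both thresholds, for the lowest and highest log2FC of each role group and for paralog sets. They were also given for *Uqcc2*, *Cox5a*, *Cox7c*, *Atp5b* and *Atp5l*, which this rule does not cover. *Pet117* and *Ccsmst1* are not analysed here. Of the members, 21 overlap another annotated gene, and 17 overlap a gene on the opposite strand. For these 17, counts made without strand would be uncertain. Promoters are from the RefSeq table of GRCm38.p6. There, 9 members had no entry and 4 had more than 1, of which any could hold a match. Motifs were searched on both strands, and no match overlapped one of a different motif, while NRF1 matches on opposite strands overlapped each other in 3 members.

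The alternatives were DESeq2 1.42.0 with its Wald test, upper-quartile and RLE factors, no filter, a filter on a mean of 1 CPM, a replicate block, each library left out, mitochondrially encoded genes removed and no fold threshold. A term for the *Xist*-expressing hearts was added after the data were seen.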

Additional observations from a re-analysis of the deposited data

How the results depend on the processing

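With no fold threshold, 32 members were lower, 24 further genes of the pathway were lower and 3 higher, and 3172 of all genes were lower and 3418 higher. Without mitochondrially encoded genes, 3 further genes of the pathway fell, since 5 of the 8 are mitochondrially encoded. Leaving out each library in turn, 5 to 9 members fell and 1 rose, and the lowest count, without control replicate 1, had lost *Uqcrfs1*, *Bcs1l* and *Cox6b2*. The sign turned for genes near 0: *Uqcc2* was -0.090 with upper-quartile factors and -0.077 to 0.099 over the left-out libraries (negative without *Immtfl/fl-Myh6-MCM* replicate 1, -0.034, or control replicate 2), *Cox16* ran from -0.33 to 0.068 (positive without *Immtfl/fl-Myh6-MCM* replicate 2), *Sco1* from -0.21 to 0.0076 (positive without *Immtfl/fl-Myh6-MCM* replicate 1) and *Cox10* from -0.069 (without *Immtfl/fl-Myh6-MCM* replicate 3) to 0.35. The cause was not tested. Upper-quartile factors moved the median log2FC of all genes to -0.10 and added *Atp5j* (-1.04) and *Cox7c* (-1.01) to the genes that fell. *Cox6b2* did not reach the filter on a mean of 1 CPM. Of 713 values of single members under the alternatives, 698 kept their direction and whether the member passed both thresholds together. The adjusted p alone was less stable. It was lost in 33 of these values, over 10 members, and gained in 12, over 6 members, and 23 to 37 members were lower by it, the fewest without *Immtfl/fl-Myh6-MCM* replicate 2 or control replicate 1. *Atp5a1*, *Atp5g1*, *Atp5g2*, *Atp5g3*, *Atp5o*, *Atp5s*, *Cyc1* and *Uqcrq* lost it only where a library was left out. The members that gained it were *Atp5b*, *Atp5d*, *Cox5a*, *Cox5b*, *Cox6b1* and *Cox15*.

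Same-numbered hearts did not deviate together (correlations across genes of 0.01, -0.04 and 0.01). With so few hearts this cannot tell whether a number marks a shared litter or day, and *Xist* was expressed in replicate 3 of both groups. With a replicate block, 8 members fell and 1 rose, the same genes, and *Ttc19* no longer passed the adjusted p (0.0837).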

Other observations

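Of 8 tested genes of complex II, 1 fell and 6 were lower by adjusted p, where 10.6% and 18.5% of all genes tested did so. The 1 that fell was about the share of all genes. Complex II feeds electrons into complex III and has no mitochondrially encoded subunit. *Sdha*, its flavoprotein, had 679, 716 and 855 CPM in *Immtfl/fl-Myh6-MCM* hearts, against 1732, 1309 and 1626 CPM in control hearts (log2FC -1.05, adjusted p = 0.000698 from edgeR), with no overlap. *Sdhb*, *Sdhc* and *Sdhd* were lower by adjusted p alone (log2FC -0.69, -0.61 and -0.51), and so were the assembly factors *Sdhaf2* (log2FC -0.50) and *Sdhaf4* (log2FC -0.85), while *Sdhaf1* and *Sdhaf3* did not pass the test. The summed level of the 8 genes was 52.1%, 53.4% and 63.6% of the control mean in *Immtfl/fl-Myh6-MCM* hearts, against 109.9%, 86.3% and 104% in control hearts.

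*Atp5k-ps2*, a pseudogene of *Atp5k* on chromosome 2, had 18, 6 and 14 counts in *Immtfl/fl-Myh6-MCM* hearts, against 33, 50 and 47 counts in control hearts (log2FC -2.27, adjusted p = 0.00825 from edgeR). The other 4 pseudogene entries of the member families held 0 to 25 counts in every heart. How reads were shared between *Atp5k* and its copies was not tested.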
